A study of Mus musculus with 3 samples.

Results

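Transcription factors that set or mark cell lineages were followed across the somatic cells of the mouse testis. The 9 genes, *Tcf21*, *Nr2f1*, *Nr2f2*, *Wt1*, *Gata4*, *Gata6*, *Sox9*, *Nr5a1* and *Mef2c*, were chosen by name as known regulators of interstitial, mural, Sertoli and steroidogenic cells, and all 9 were present among the 33447 genes of the Tomato-negative table, the 29872 of the control table and the 33850 of the cKO table. Droplet-based 10x scRNA-seq counted unique molecular identifiers (UMIs), 1 per captured RNA molecule, in 3 libraries, each pooled from several mice. The Tomato-negative library came from 8-week-old C57BL/6 males carrying *Ddx4-creER* and *R26tdTomato* that had received tamoxifen. This was to mark germ cells as Tomato+, and Tomato+ cells were sorted away. Germ cells were still 3643 (71.6%) of the 5085 cells of this library kept after quality limits. The control library came from *Scf* fl/fl males and the cKO library from *Amh-cre; Scf* fl/fl males, both 6 weeks old and both depleted of haploid spermatids by flow cytometry. *Amh-cre* acts in Sertoli cells, and *Scf* (*Kitl*) is the gene that it deletes. Both *Scf* libraries therefore carry floxed alleles, while age, alleles and sorting all differ from those of the Tomato-negative library, so that levels of that library are given beside the others and not as a contrast.

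The supporting tissue of the testis has several lineages, each kept by its own regulators. Sertoli cells, which line the tubule and nurse the germ cells, rely on SOX9 and WT1, and GATA4 and NR5A1 (steroidogenic factor 1) act in both Sertoli and Leydig cells. The interstitium and the tubule wall hold TCF21+ mesenchymal cells, contractile peritubular myoid cells, vessels and macrophages, where COUP-TF orphan receptors (NR2F1 and NR2F2) and MEF2C have their known roles in mesenchyme, smooth muscle, endothelium and myeloid cells.

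Classes were named from marker genes that did not include the 9 factors, and the factors were also withheld from the genes used for clustering. After limits on detected genes and mitochondrial counts, 5085 of 7626 Tomato-negative, 5975 of 6264 control and 7017 of 7252 cKO cells were kept, with median UMIs per cell of 10214, 5911 and 6328. Somatic cells numbered 1442, 913 and 4299. The Tomato-negative library held 629 Sertoli-like, 248 vascular smooth muscle-like (VSM-like), 195 myoid-like, 140 macrophage-like, 118 stromal-like, 82 endothelial-like and 30 Leydig-like cells, and in each of these classes all or nearly all markers of its own list had counts. No Sertoli-like and no endothelial-like class formed in the control or cKO libraries. The control classes were myoid-like (607 cells), macrophage-like (139), stromal-like (102) and VSM-like (60), and the cKO classes were myoid-like (2017), stromal-like (1563), macrophage-like (277), VSM-like (267), Leydig-like (141) and T or NK cell-like (34). The VSM-like class of these libraries was mixed. Only 33 of its 60 control cells and 142 of its 267 cKO cells had the same class when each cell was read by its own marker counts, 3 and 23 of them read as Sertoli-like and 2 and 9 as endothelial-like, so values of this class are for all its cells, and levels in the matching cells alone are given beside them. The 3 libraries shared 9 to 15 barcodes in any pair.

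Levels are counts-per-million (CPM), the UMIs of a gene summed over a class and divided by all UMIs of that class, with exact Poisson 95% intervals in parentheses. Ratios carry exact conditional binomial 95% intervals. With 1 library per group these intervals cover counting error only, UMIs of 1 cell are not independent of each other, and no test across animals was possible. Germ cells, 3643, 5062 and 2718 in the 3 libraries, served as the background expected from free RNA and misassigned cells. In the map of levels, *Tcf21* was highest in stromal-like, *Nr2f2* in myoid-like and *Mef2c* in VSM-like cells of every library. *Sox9*, *Wt1*, *Gata6*, *Gata4* and *Nr5a1* were highest in Sertoli-like cells of the Tomato-negative library, with *Wt1* also high in endothelial-like cells.

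**Figure D1:**
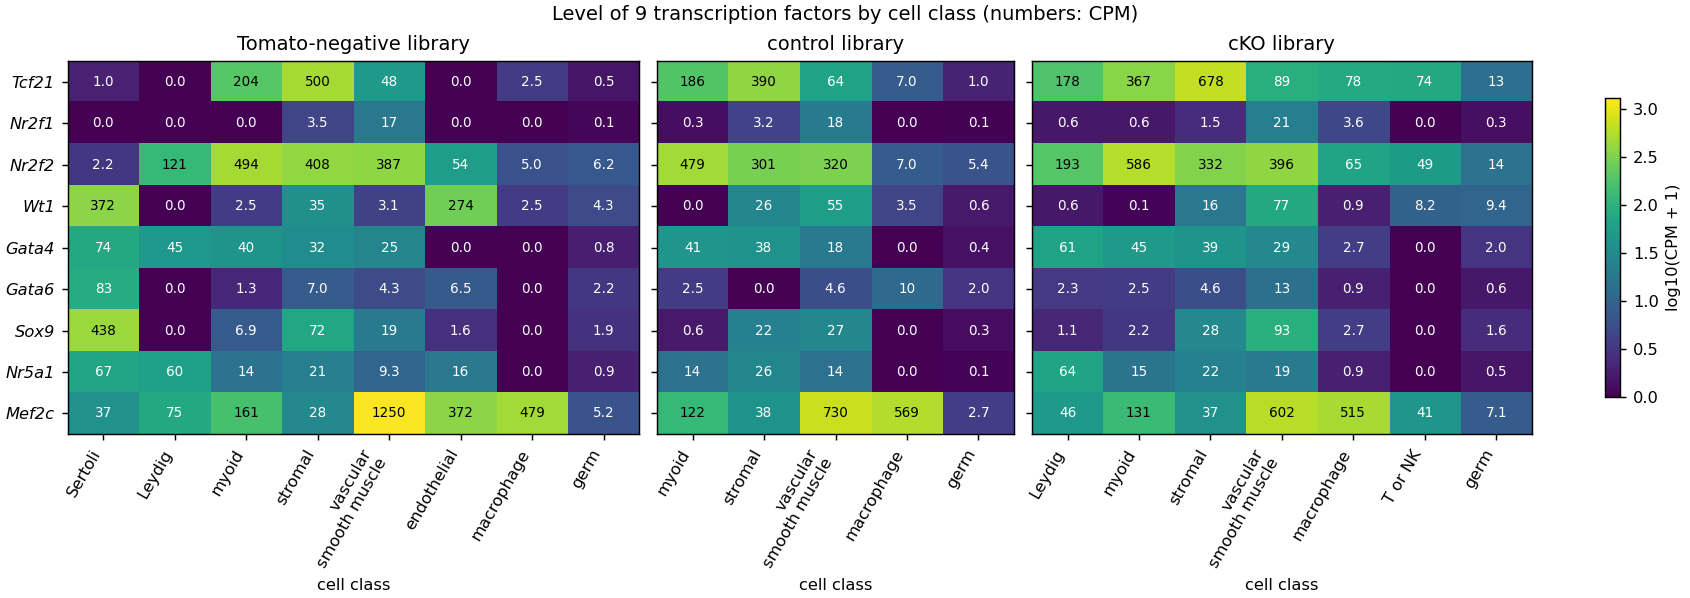
Level of each of the 9 factors (rows) in each cell class (columns) of the Tomato-negative, control and cKO libraries. Colour is log10(CPM + 1) and the printed numbers are CPM. *Sox9* at 438 CPM and *Wt1* at 372 CPM mark the Sertoli column, *Mef2c* at 1250.3 CPM the vascular smooth muscle column, and *Tcf21* at 500.1 CPM the stromal column of the Tomato-negative library.

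*Tcf21*, *Nr2f2* and *Nr2f1* are the interstitial and mural factors, and the reference sequences around their starts are shown because these genes carried the stromal, myoid and vascular patterns described next. RefSeq promoters of GRCm38.p6 were at hand for 4 of the 9 genes (*Tcf21*, *Nr2f1*, *Nr2f2* and *Mef2c*), each of 300 bases that begin upstream of a start and end just inside the transcript, and all 3 printed here lie on the minus strand and run 5′ to 3′ along the gene. They are chr10:22820094-22820393 for *Tcf21*, chr7:70366697-70366996 for *Nr2f2* and chr13:78198824-78199123 for *Nr2f1*, which has a further start at chr13:78196400-78196699. Capitals mark the only matches to the 7 motifs searched.
Tcf21: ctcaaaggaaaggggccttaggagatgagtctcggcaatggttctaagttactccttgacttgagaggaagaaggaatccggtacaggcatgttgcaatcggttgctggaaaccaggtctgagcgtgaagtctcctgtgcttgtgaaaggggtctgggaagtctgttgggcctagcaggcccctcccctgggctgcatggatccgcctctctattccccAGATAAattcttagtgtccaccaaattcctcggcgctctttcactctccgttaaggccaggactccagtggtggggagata
Nr2f2: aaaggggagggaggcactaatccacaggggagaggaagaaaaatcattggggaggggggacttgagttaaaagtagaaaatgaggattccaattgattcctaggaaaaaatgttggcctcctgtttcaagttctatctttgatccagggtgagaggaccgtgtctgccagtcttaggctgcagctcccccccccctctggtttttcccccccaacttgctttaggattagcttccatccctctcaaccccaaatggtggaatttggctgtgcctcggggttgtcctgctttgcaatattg
Nr2f1: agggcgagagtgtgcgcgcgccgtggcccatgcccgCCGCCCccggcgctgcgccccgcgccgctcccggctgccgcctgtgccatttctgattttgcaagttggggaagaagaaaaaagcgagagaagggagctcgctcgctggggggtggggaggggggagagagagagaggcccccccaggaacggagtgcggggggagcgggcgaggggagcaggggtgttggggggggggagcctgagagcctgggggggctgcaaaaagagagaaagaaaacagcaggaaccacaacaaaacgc
The motifs, read on both strands, were AGATAA (bound by GATA factors), CAGCTG (an E-box of basic helix-loop-helix factors), CAAGGTCA (NR5A receptors), CTA and TAG with 4 bases between them (MEF2), CATTGT (SOX), GGGCGG (GC box) and TATAAA (the core of the TATA box). Over all 32851 mouse promoters of this length, they were found in 11.2%, 16.3%, 1.56%, 3.69%, 12.6%, 35.7% and 13.6%, respectively. The *Tcf21* window held AGATAA with its first base at -31 from the start, the *Nr2f1* window held the GC box as CCGCCC at -214, and the *Nr2f2* window held none of the 7 strings. Of the 3 *Mef2c* windows, the one at chr13:83523406-83523705 held TTTATA at -22 and GGGCGG at -10, and another held TTTATA at -107. The GC content was 68.0% in the printed *Nr2f1* window, 53.3% in that of *Tcf21* and 49.7% in that of *Nr2f2*, beside a median of 52.7% over all promoters. A match of letters describes the sequence only.

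*Tcf21*, a basic helix-loop-helix factor of mesenchymal progenitors, was highest in stromal-like cells of every library. Its level there was 500.1 CPM (444–562) in Tomato-negative, 390.4 CPM (324–466) in control and 678 CPM (660.4–696) in cKO cells. Myoid-like cells came next, at 204 CPM, 186 CPM and 367 CPM. The ratio of stromal-like over myoid-like was 2.45 (2.09–2.89), 2.1 (1.71–2.56) and 1.85 (1.78–1.92), so the order of these classes was the same in all 3 libraries. VSM-like cells were lower again, at 47.8, 63.9 and 89.0 CPM, and *Tcf21* was at 89.5 and 99.0 CPM in the matching cells of the last 2 libraries. Sertoli-like cells had 6 counts (0.958 CPM) beside a germ cell level of 0.521 CPM. Endothelial-like and Leydig-like cells of the Tomato-negative library had 0 counts, where 3 counts would be 4.89 CPM and 45.3 CPM. Leydig-like cells of the cKO library stood at 178 CPM (159–199), from 314 counts in 141 cells. In these cells the stromal marker list summed to 1851 CPM with 10 of 10 markers seen and the Sertoli list to 5002 CPM with 12 of 15, against 90.6 CPM with 3 of 10 and 6611 CPM with 11 of 15 in the Tomato-negative Leydig-like cells, and the part of other cells' RNA was not tested. The 34 T or NK cell-like cells of that library had 9 counts (73.9 CPM) in 2 cells. The germ cell level was 0.521 CPM and 1.01 CPM in the Tomato-negative and control libraries but 12.5 CPM (11.5–13.6) in the cKO library.

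*Tcf21* was found in most stromal-like cells. At least 1 UMI was seen in 74.6% (65.7–82.1) of Tomato-negative, 58.8% (48.6–68.5) of control and 85.0% (83.1–86.7) of cKO stromal-like cells, whose median depths were 4731.5, 3146 and 5176 UMIs. Germ cells, at medians of 13142, 7004 and 16010.5 UMIs, had a *Tcf21* UMI in 0.769%, 0.948% and 8.83% of cells. With every cell thinned to 1000 UMIs, which left out 1, 4 and 26 shallower stromal-like and 62, 228 and 94 germ cells, the stromal-like shares were 37.6%, 28.6% and 44.0% and the germ cell shares 0.0838%, 0.124% and 1.11%.

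*Nr2f2*, the orphan receptor COUP-TFII, had a broader pattern over the same tissues. Its peak lay in myoid-like cells, with 494 CPM (461–530.1) in Tomato-negative, 479 CPM (455–503) in control and 586 CPM (572–600.2) in cKO cells. Stromal-like cells had 408 CPM, 301 CPM and 332 CPM. VSM-like cells had 387 CPM, 319.5 CPM and 396 CPM, and *Nr2f2* was at 313 CPM and 452 CPM in the matching control and cKO cells. The stromal-like and vascular levels did not differ beyond counting error in the Tomato-negative library (ratio 1.06, 0.905–1.23) or the control library (vascular over stromal 1.06, 0.768–1.46), while in cKO cells the vascular level was 1.19 times the stromal one (1.08–1.31). Myoid-like cells were 1.21 times (1.04–1.41) the next class in Tomato-negative, 1.5 times (1.18–1.93) in control and 1.48 times (1.35–1.62) in cKO cells. As a mean over cells, the cKO order turned, with *Nr2f2* at 592 CPM in myoid-like and 615 CPM in VSM-like cells. Leydig-like cells had 121 CPM (8 counts) and 193 CPM in the 2 libraries that held them, and endothelial-like cells 53.8 CPM. Sertoli-like cells, at 2.23 CPM, lay under the germ cell level of 6.18 CPM.

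A *Nr2f2* UMI was present in 97.4% of Tomato-negative, 90.0% of control and 92.4% of cKO myoid-like cells, at medians of 8102, 5281 and 5724 UMIs, against 9.61%, 5.73% and 10.1% of the germ cells. *Tcf21* and *Nr2f2* were each found in most cells of the stromal-like and myoid-like classes. In stromal-like cells *Tcf21* was seen in 74.6%, 58.8% and 85.0% and *Nr2f2* in 81.4%, 61.8% and 73.4% of cells. In myoid-like cells *Tcf21* was seen in 71.3%, 60.3% and 80.4%. An excess of cells with both, over these single shares, was not tested. Both had a UMI in 62.7%, 38.2% and 64.2% of stromal-like cells and in 69.2%, 53.9% and 74.9% of myoid-like cells of the Tomato-negative, control and cKO libraries. The balance of the pair set the classes apart, since *Tcf21* gave 55.0% (50.6–59.4), 56.5% (49.6–63.2) and 67.1% (66.1–68.2) of the UMIs of both genes in stromal-like cells and 29.2%, 28.0% and 38.5% in myoid-like cells. In VSM-like cells it gave 11%, 16.7% and 18.3%.

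*Nr2f1*, the paralog COUP-TFI, was sparse and highest in vascular cells. VSM-like cells held 27 of the 29 somatic counts in Tomato-negative, 4 of 6 in control and 27 of 51 in cKO cells. Their level was 16.8 CPM (11–24.4), 18.3 CPM (4.98–46.8) and 20.9 CPM (13.8–30.4). Restricting the control and cKO class to the cells whose own markers matched gave *Nr2f1* levels of 29.8 CPM and 31.3 CPM. Stromal-like cells had 2, 1 and 12 counts, and myoid-like cells 0, 1 and 7. Only 9.27%, 6.67% and 8.99% of VSM-like cells had a *Nr2f1* UMI, against 0.247%, 0.0790% and 0.515% of germ cells. In the Tomato-negative and control libraries every such cell also had a *Mef2c* UMI (23 of 23 and 4 of 4), and in the cKO library 19 of 24 did. Of all VSM-like cells, 98.0%, 61.7% and 62.5% had a *Mef2c* UMI, and a link of the 2 genes was not tested.

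*Mef2c*, a MADS-box factor of muscle, vessels and myeloid cells, was high in mural cells, macrophages and endothelium. It stood at 1250.3 CPM (1196–1306) in Tomato-negative, 730.4 CPM (622–853) in control and 602 CPM (560.0–645) in cKO VSM-like cells, and at 1051.9 CPM and 809.5 CPM in the matching cells of the last 2. Macrophage-like cells followed with 479 CPM (414–552), 569 CPM (485–664) and 515 CPM (473–559). The ratio of the 2 classes was 2.61 (2.25–3.04), 1.28 (1.03–1.61) and 1.17 (1.05–1.30). As a mean over cells, the cKO order turned, with *Mef2c* at 543 CPM in VSM-like and 597 CPM in macrophage-like cells. Endothelial-like cells of the Tomato-negative library had 372 CPM (325–424), and macrophage-like cells were 1.29 times (1.06–1.57) higher. Myoid-like cells had 161 CPM, 122 CPM and 131 CPM, and stromal-like cells only 28.2 CPM, 38.4 CPM and 36.5 CPM. The germ cell level was 5.18 CPM, 2.67 CPM and 7.06 CPM.

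A *Mef2c* UMI was found in 98.0% of Tomato-negative, 61.7% of control and 62.5% of cKO VSM-like cells, and in 65.0%, 64.7% and 80.9% of macrophage-like cells, at medians of 6358, 2765 and 4404 UMIs in the first class and 2729.5, 2057 and 3078 in the second. Of the endothelial-like cells, at a median of 5871.5 UMIs, 81.7% (71.6–89.4) had one, against 5.41%, 3.04% and 7.65% of germ cells. In the VSM-like cells *Nr2f2* was seen in 83.9%, 58.3% and 74.2%, and both genes in 83.5%, 36.7% and 50.6% of the class. Macrophage-like cells of the Tomato-negative and control libraries had only 2 counts of *Nr2f2* each.

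**Figure D2:**
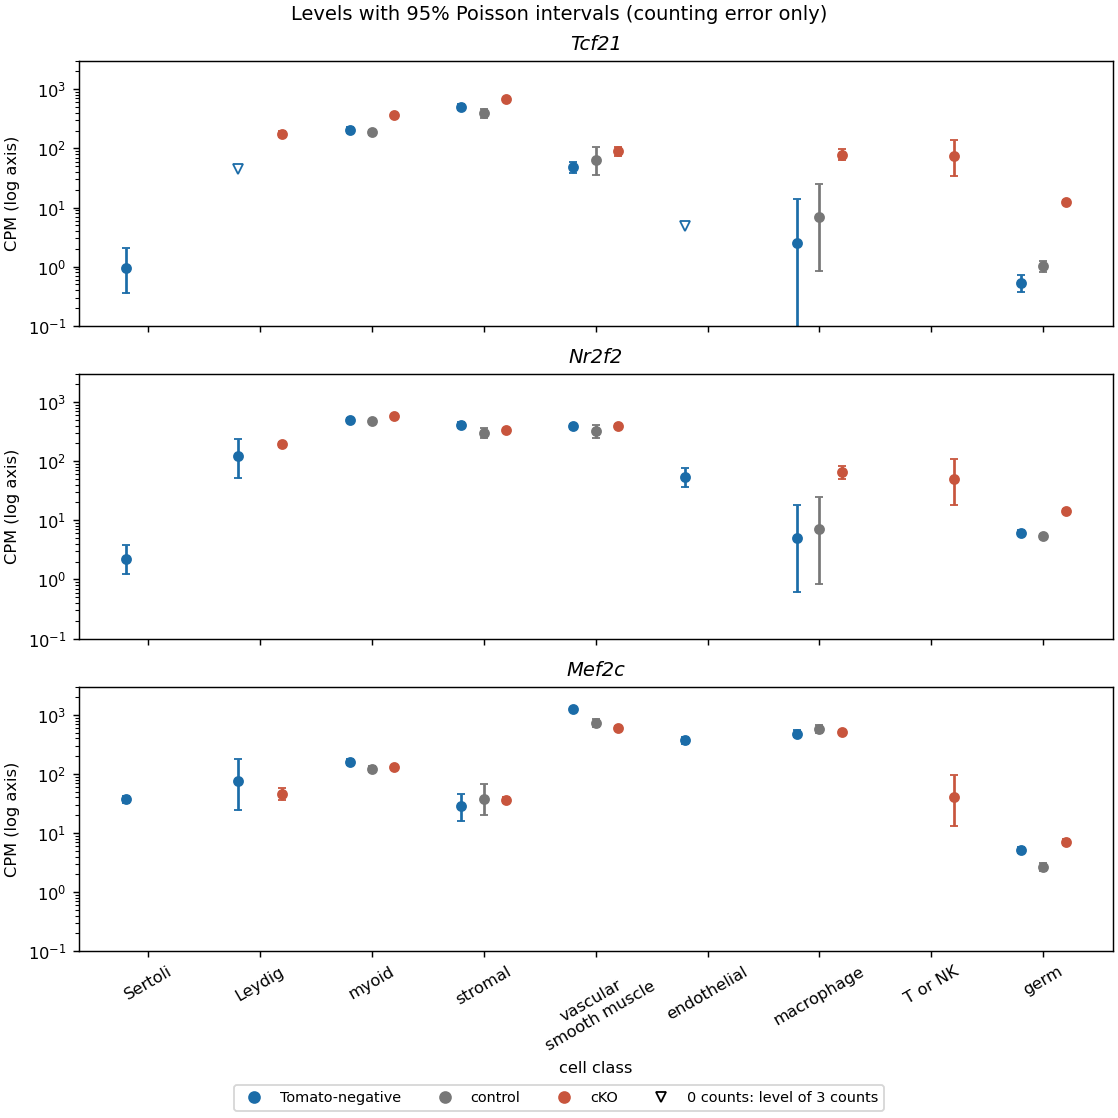
CPM (log axis) of *Tcf21*, *Nr2f2* and *Mef2c* in each cell class, with the 3 libraries side by side. Points are levels, bars are 95% Poisson intervals for counting error, and open triangles stand at the level of 3 counts where a class had none. *Tcf21* peaks in stromal, *Nr2f2* in myoid and *Mef2c* in vascular smooth muscle cells, with macrophages next for *Mef2c*.

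*Sox9*, *Wt1* and *Gata6* were highest in Sertoli-like cells, as were *Gata4* and *Nr5a1*, and this class formed in the Tomato-negative library alone. *Sox9*, the SRY-related factor that drives Sertoli fate, stood at 438 CPM (422–454) in the 629 Sertoli-like cells, and at 129 CPM with the limit of 3500 genes. The next class was stromal-like at 72.2 CPM, a ratio of 6.06 (4.46–8.47), and VSM-like cells followed at 18.6 CPM and myoid-like cells at 6.88 CPM. *Sox9* had 1 count in endothelial-like and none in Leydig-like or macrophage-like cells, and the germ cell level was 1.89 CPM.

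*Wt1*, a zinc finger factor of the gonadal ridge and Sertoli cells, had 2 high classes. Sertoli-like cells were at 372 CPM (357–387) and endothelial-like cells at 274 CPM (234–319), a ratio of 1.36 (1.16–1.60). This order turned with the limit of 3500 genes, where *Wt1* was at 121 CPM in Sertoli-like and 290.4 CPM in endothelial-like cells, and as a mean over cells, at 241 CPM and 295 CPM. As reported, stromal-like cells had 35.2 CPM (21.5–54.4) of *Wt1* and every other class 5 counts or fewer. All 82 endothelial-like cells kept their class when read by their own markers. Their Sertoli marker list summed to 1255 CPM, against 39094.6 CPM in Sertoli-like cells, and they held 168 counts of *Wt1* but 1 of *Sox9*. *Wt1* was seen in 79.3% (68.9–87.4) of endothelial-like cells and in 57.2% (53.3–61.1) of Sertoli-like cells at medians of 5871.5 and 6410 UMIs, against 6.59% of germ cells. Thinned to 1000 UMIs, which left out 1 endothelial-like and 27 Sertoli-like cells, the shares were 22.2% (13.7–32.8) and 20.4% (17.3–23.9), whose intervals overlap. In 56 of the 82 endothelial-like cells *Wt1* and *Mef2c* were both present.

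*Gata6*, a GATA factor of Sertoli and other endoderm- and mesoderm-derived cells, was at 83.1 CPM (76.2–90.6) in Sertoli-like cells and 11.8 times (4.58–43.5) lower in the next class, stromal-like, with 4 counts. Its relative *Gata4*, needed for gonad formation, had a wider spread over classes. *Gata4* stood at 74.2 CPM (67.6–81.3) in Sertoli-like cells, 45.3 CPM in Leydig-like cells (3 counts), 40.0 CPM (30.8–51.1) in myoid-like, 31.7 CPM (18.8–50.1) in stromal-like and 25.4 CPM (18.3–34.5) in VSM-like cells. The ratio interval of each neighbouring pair in that order included 1, but the Leydig-like class in the chain had only 3 counts. The interval of the Sertoli-like level lay above those of the myoid-like, stromal-like and VSM-like levels. *Gata4* had 0 counts in endothelial-like and macrophage-like cells, where 3 counts would be 4.89 CPM and 7.53 CPM.

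*Nr5a1*, the regulator of steroidogenic genes, was at 67.3 CPM (61.1–74.1) in Sertoli-like and 60.4 CPM (16.4–155) in Leydig-like cells of the Tomato-negative library, the latter from 4 counts in 30 cells with a median of 1416 UMIs. These levels did not differ beyond counting error (ratio 1.12, 0.432–4.11). Stromal-like cells had 21.1 CPM, endothelial-like 16.3 CPM and myoid-like 14.4 CPM, with 0 counts in macrophage-like cells.

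Sertoli-like cells fell into a cluster of 196 cells with a median of 21049 UMIs and one of 433 cells with a median of 4098 UMIs, and all 6 factors found in them were higher in CPM in the deeper cluster. *Sox9* was at 624 CPM (600.1–650) in the deeper and 116 CPM (103–131) in the shallower cluster. *Wt1* was at 519.8 CPM and 118 CPM. *Gata6* was at 115 CPM and 28.2 CPM, *Gata4* at 94.9 CPM and 38.7 CPM, *Nr5a1* at 82.8 CPM and 40.8 CPM, and *Mef2c* at 42.1 CPM (36.0–49.0) and 28.2 CPM (21.8–36.0). The intervals of each gene did not overlap between the clusters, and those of *Mef2c* all but touched. At the deeper cluster's depth 99.0% of cells had a *Sox9* UMI, 99.5% a *Wt1*, 87.8% a *Gata6*, 83.7% a *Gata4* and 74.5% a *Nr5a1* UMI. Over both clusters *Sox9* and *Wt1* were found together in 279 of 629 cells and *Gata4* and *Gata6* together in 161, and 198 cells had neither *Sox9* nor *Wt1*.

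**Figure D3:**
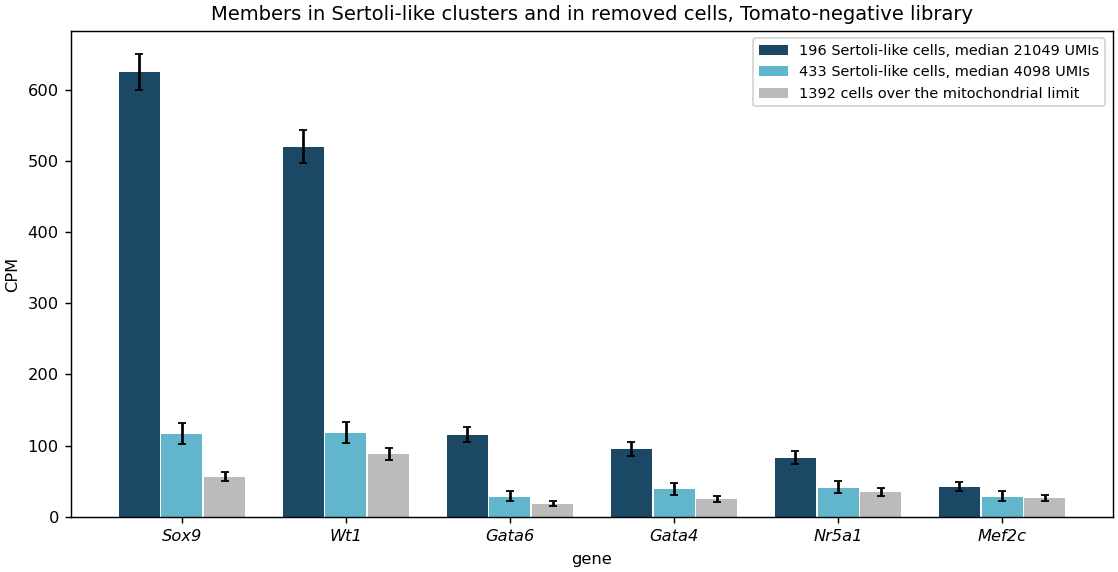
CPM of 6 factors in the 2 Sertoli-like clusters of the Tomato-negative library and in the 1392 cells of the same library over the mitochondrial limit, with 95% Poisson intervals. All 6 bars are highest in the cluster of 196 deep cells, where *Sox9* reaches 624 CPM, against 116 CPM in the cluster of 433 cells.

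The control and cKO libraries had no Sertoli-like class, and *Gata4* and *Nr5a1* were read there in the classes that formed. *Gata4* was at 40.9 CPM (34.2–48.6) in control and 45.5 CPM (41.7–49.5) in cKO myoid-like cells, and at 38.4 CPM (19.8–67.1) and 39.4 CPM (35.2–43.9) in stromal-like cells, close to the Tomato-negative values of these classes. The 141 cKO Leydig-like cells were highest for *Gata4* at 61.3 CPM (50.2–74.0), 1.35 times (1.08–1.66) the myoid level. They were also highest for *Nr5a1*, at 64.1 CPM (52.8–77.0), which was 2.89 times (2.26–3.68) the stromal-like level of 22.2 CPM. *Nr5a1* stood at 25.6 CPM (8 counts) in control stromal-like cells and at 13.7 CPM and 14.9 CPM in control and cKO myoid-like cells.

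*Sox9* and *Wt1* in the control and cKO libraries depended on the mixed vascular class. In all cells of that class *Sox9* was at 27.4 CPM (6 counts) in control and 92.9 CPM (120 counts) in cKO, and *Wt1* at 54.8 CPM (12 counts) and 76.6 CPM (99 counts). In the matching cells alone *Sox9* had 0 counts in control and 3 counts in cKO, and *Wt1* had 0 in both. The Sertoli marker list summed to 4259 CPM in the control class and 2987 CPM in the cKO class, against 589 CPM in the same class of the Tomato-negative library. In cKO stromal-like cells *Sox9* was at 28.2 CPM (228 counts) and *Wt1* at 16.3 CPM (132 counts), and in control stromal-like cells they were at 22.4 CPM (7 counts) and 25.6 CPM (8 counts). *Gata6* had only 12 counts over all control somatic classes and 88 over those of the cKO library.

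Class restriction was read as the count of factors whose highest somatic class was at least 2-fold above the next. In the Tomato-negative library this held for 5 of 9 (*Tcf21*, *Nr2f1*, *Gata6*, *Sox9* and *Mef2c*), where 33.3% of 15362 genes with at least 20 somatic counts passed. In the control library it held for 2 of the 6 members with that many counts (*Tcf21* and *Wt1*), against 23.3% of 11493 genes. In the cKO library it held for 5 of 9 (*Nr2f1*, *Wt1*, *Gata6*, *Sox9* and *Nr5a1*), against 24.3% of 15355 genes. *Tcf21* was at 2.45-fold in the Tomato-negative and 1.85-fold in the cKO library, with the same order of classes. The *Wt1* call of control and the *Wt1*, *Gata6* and *Sox9* calls of the cKO library lay in the mixed vascular class, and changed without its unmatched cells. Among the matching cKO cells *Sox9* was highest in stromal-like cells at 28.1 CPM (212 counts) and next in VSM-like cells at 3.76 CPM (3 counts), while *Wt1* stood at 17.1 CPM and *Gata6* at 4.38 CPM in stromal-like cells, less than 2-fold above the next class.

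Germ cells were the background of these values. *Wt1* was at 10.5 CPM (8.79–12.3) in Tomato-negative, 2.20 CPM (1.58–2.98) in control and 9.82 CPM (8.88–10.8) in cKO spermatogonia, and at 2.63 CPM, 0.119 CPM and 2.21 CPM (5 counts) in spermatocytes. Of the UMIs of *Wt1* and *Sox9* together, *Wt1* gave 45.9% (44.6–47.3) in Sertoli-like cells but 78.1% (71.3–83.9), 69.5% (56.1–80.8) and 86.7% (83.2–89.7) in the spermatogonia of the 3 libraries. It gave 32.8%, 53.3% (26.6–78.7) and 36.7% in stromal-like cells and 14.3%, 66.7% (41.0–86.7) and 45.2% in VSM-like cells, so that the control shares of these classes overlapped that of the spermatogonia. Sertoli marker RNA in these spermatogonia was 413 CPM, 189 CPM and 281 CPM. Spermatogonia with a UMI of *Kit* or *Stra8*, genes of differentiating spermatogonia, and none of *Gfra1*, a gene of stem-like spermatogonia, had *Wt1* at 9.80 CPM, 1.91 CPM and 12.1 CPM (10.6–13.7), while those with *Gfra1* and neither of the others had 6.16 CPM (6 counts), 0 counts and 3.74 CPM (2.32–5.72).

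*Gata6* behaved differently in germ cells, with 10.2 CPM (8.39–12.2) in Tomato-negative and 8.80 CPM (6.61–11.5) in control spermatids, against 0.346 CPM and 1.78 CPM in the spermatocytes and 2.86 CPM and 0.161 CPM in the spermatogonia of these libraries. The cKO library had 18 spermatids, too few for a level. Sertoli marker RNA was 1484 CPM in Tomato-negative and 40.1 CPM in control spermatids, and its part in the *Gata6* levels was not tested. In the same spermatids *Wt1* was at 4.47 CPM (51 counts) and 0.163 CPM (1 count). Over the control library, germ cells held 147 of the *Gata6* counts and somatic cells 12. *Nr2f2* stood at 5.94 CPM, 9.75 CPM and 12.3 CPM in spermatogonia of the 3 libraries. In their spermatocytes it was at 7.43 CPM, 4.10 CPM and 55.1 CPM (125 counts in 146 cells). Tomato-negative and control spermatids had *Nr2f2* at 0.788 CPM and 2.28 CPM. The 146 cKO spermatocytes also held *Tcf21* at 31.8 CPM (72 counts) and *Mef2c* at 37.0 CPM (84 counts). The part of other cells' RNA in these levels was not tested. The control and cKO spermatocytes include a cluster of 92 cells that had first been grouped with the somatic cells. For *Tcf21*, the cKO germ cells differed from those of the other libraries. *Tcf21* gave 46.4% (43.5–49.3) of the UMIs of *Tcf21* and *Nr2f2* there, against 7.77% (5.61–10.4) in Tomato-negative and 15.9% (12.7–19.5) in control germ cells. Stromal marker RNA stood at 213 CPM in cKO, 53.9 CPM in Tomato-negative and 49.6 CPM in control germ cells, and its part in this share was not tested.

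**Figure D4:**
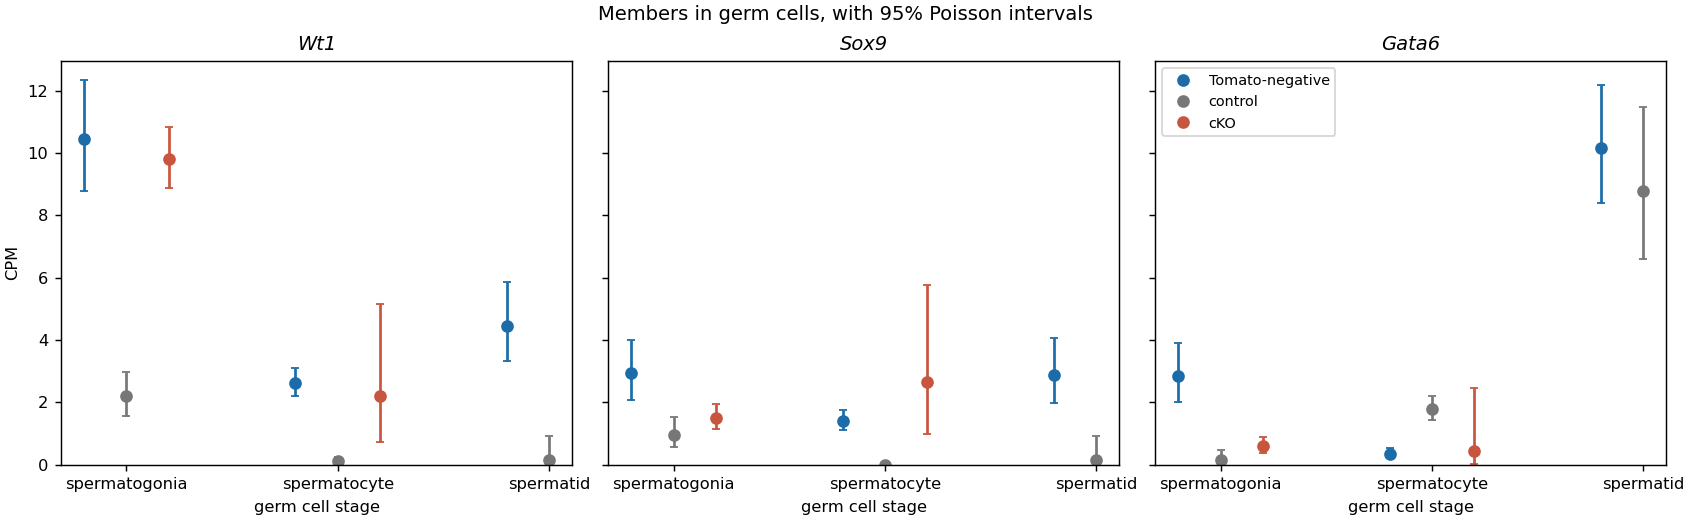
CPM of *Wt1*, *Sox9* and *Gata6* in spermatogonia, spermatocytes and spermatids of each library, with 95% Poisson intervals for counting error. Stages of fewer than 30 cells are not drawn. *Wt1* is highest in spermatogonia, while *Gata6* reaches 10.2 CPM and 8.80 CPM in the spermatids of the Tomato-negative and control libraries.

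Loss of *Scf* from Sertoli cells was the contrast between the cKO and control libraries, which could be read in the 4 classes present in both. The deleted gene itself could not be checked in its target cells, since neither library had a Sertoli-like class. *Kitl* in the other classes was at 21.0 CPM in cKO and 31.2 CPM in control myoid-like cells, 319 and 365 CPM in stromal-like, 202 and 237 CPM in VSM-like and 31.5 and 10.5 CPM in macrophage-like cells. The ratio of cKO over control was 0.672 (0.530–0.856) in myoid-like, 0.874 (0.724–1.06) in stromal-like and 0.851 (0.630–1.17) in VSM-like cells. In macrophage-like cells it was 3.01 (0.947–15.3), from 35 counts against 3. For each pair of a factor and a class with at least 20 counts over both libraries, 26 in all, the ratio of cKO over control was taken.

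*Tcf21* differed beyond counting error in 3 of the 4 classes. It was 1.97 times (1.81–2.15) higher in cKO than in control myoid-like cells (367 against 186 CPM) and 1.74 times (1.45–2.1) higher in stromal-like cells (678 against 390.4 CPM). In VSM-like cells its ratio was 1.39 (0.797–2.63). *Nr2f2* was 1.22 times (1.16–1.30) higher in myoid-like cells and did not differ beyond counting error in stromal-like (1.10, 0.898–1.37) or VSM-like cells (1.24, 0.965–1.62). *Mef2c* was 0.824 times (0.694–0.983) its control level in VSM-like cells, and its ratio was 1.08 (0.963–1.21) in myoid-like, 0.951 (0.536–1.86) in stromal-like and 0.904 (0.758–1.08) in macrophage-like cells. In the matching VSM-like cells the ratios were 1.11 for *Tcf21*, 1.44 for *Nr2f2* and 0.770 for *Mef2c*. *Gata4* had ratios of 1.11 (0.916–1.36) and 1.03 (0.579–2.01) in myoid-like and stromal-like cells, and *Nr5a1* of 1.08 (0.775–1.55) and 0.866 (0.430–2.04). The median log2 ratio of all genes lay between -0.08 and -0.02 in the 4 classes. The spread between animals within a genotype was not measured, so none of these ratios can be set against it.

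Of the 26 pairs, 4 lay at least 2-fold above control and none at least 2-fold below. In macrophage-like cells these were *Tcf21*, at 78.3 CPM (87 counts) against 6.98 CPM (2 counts), a ratio of 11.2 (3.01–94.0) that was 2.90 without the called doublets, and *Nr2f2*, at 64.8 CPM (72 counts) against 6.98 CPM (2 counts), a ratio of 9.27 (2.48–78.0) that ranged from 4.2 to 30.9 over the alternatives. Without called doublets, *Nr2f2* had 15 counts against 0. There 12.9% of 7139 genes were at least 2-fold higher and 9.17% at least 2-fold lower. The stromal marker list stood higher too, from 384 CPM with 8 of 10 markers seen in control to 1581 CPM with 10 of 10 in cKO macrophage-like cells, and the myoid list from 597 CPM to 1736 CPM with 10 of 10 seen in both. Called doublets were 22 of the 277 cKO and 4 of the 139 control cells. *Tcf21* gave 54.7% (46.6–62.6) of the *Tcf21* and *Nr2f2* UMIs in these cKO cells, between the 67.1% of stromal-like and the 38.5% of myoid-like cells. Only 24 of the 277 cells had a *Tcf21* UMI, and the part of other cells' RNA was not tested. Among the 266 cKO cells that matched by their own markers *Tcf21* was at 37.9 CPM and *Nr2f2* at 45.7 CPM, against 0 counts of each in the 134 matching control cells.

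The other 2 pairs were *Sox9* in VSM-like cells, at 3.39-fold (1.51–9.43), where 8.8% of 8647 genes were at least 2-fold higher, and *Sox9* in myoid-like cells, at 3.56-fold (0.892–31.0) from 26 counts against 2, where 5.32% of 13588 genes were. The vascular call lay in the mixed class and had 3 counts against 0 in its matching cells. In stromal-like cells 0 of 8 members passed in either direction, beside 7.02% of 12043 genes above and 7.84% below. The shares of genes at least 2-fold lower were 7.13% in myoid-like and 5.09% in VSM-like cells, and no member was among them.

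**Figure D5:**
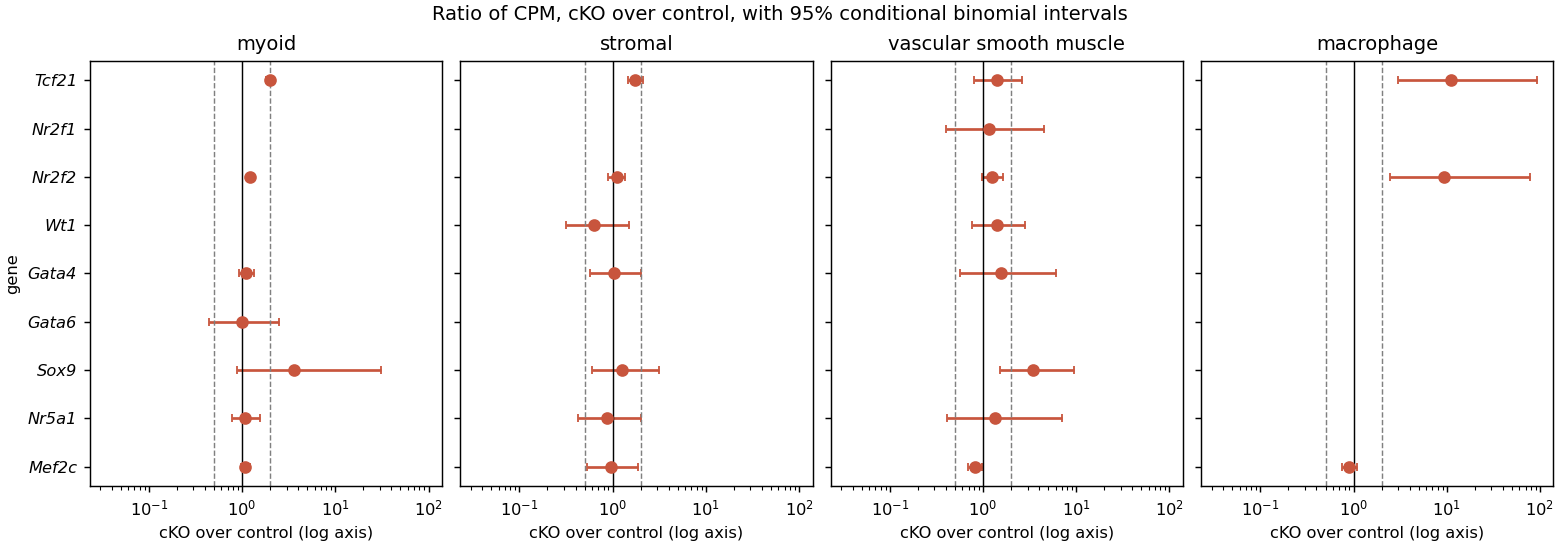
Ratio of CPM, cKO over control (log axis), for each factor in the 4 classes present in both libraries, with 95% conditional binomial intervals. The solid line marks 1 and the dashed lines mark 2-fold in each direction. *Gata6* in stromal cells, with 0 counts in control, is not drawn. *Tcf21* lies to the right of 1 in myoid, stromal and macrophage cells.

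A list of 65 relatives and partners of the 9 genes was read by the same rule. In the Tomato-negative library 27 of the 55 with at least 20 somatic counts (49.1%) were at least 2-fold above every other class, beside 33.3% of all genes. In control 13 of 40 (32.5%) were, beside 23.3% of all genes, and in cKO 20 of 54 (37.0%), beside 24.3%. The list was chosen for known class factors, and the difference from all genes was not tested. By the class of the highest level, 15 of the 55 were endothelial, 14 vascular smooth muscle, 10 Sertoli, 8 myoid, 4 stromal and 4 macrophage. By list, the Tomato-negative library had 3 of 4 GATA and FOG genes past 2-fold, 4 of 9 SOX genes, 1 of 5 nuclear receptors, 0 of 7 MEF2 relatives and muscle partners, 4 of 8 basic helix-loop-helix genes, 4 of 7 gonadal and WT1 partners and 11 of 15 endothelial, mural and immune factors. The same counts were 1 of 2, 2 of 6, 0 of 4, 0 of 7, 1 of 7, 3 of 5 and 6 of 9 in control and 2 of 4, 5 of 7, 1 of 5, 0 of 8, 2 of 8, 3 of 9 and 7 of 13 in cKO cells.

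In Sertoli-like cells the genes most restricted by their ratio to the next class were *Gata1*, a further GATA factor, at 103 CPM and 19.4-fold (6.62–94.4), *Tbx18* at 36.1 CPM and 19.4-fold, and *Sox8*, a close relative of *Sox9*, at 66.5 CPM and 9.45-fold (3.66–34.8). In stromal-like cells they were *Osr1*, an intermediate mesoderm factor, at 192 CPM and 6.02-fold (4.28–8.57), *Lhx9*, a gonadal LIM factor, at 91.6 CPM and 2.66-fold, and *Twist1* at 276 CPM and 2.37-fold. In myoid-like cells *Twist2* led, at 20.6 CPM and 2.34-fold (0.909–7.69), an interval that includes 1. VSM-like cells were led by the Notch target *Hey2* at 45.3 CPM and 24.2-fold, *Wtip* at 353 CPM and 6.97-fold and *Tbx2* at 154 CPM and 5.10-fold. Endothelial-like cells were led by *Sox7* at 175 CPM, *Erg* at 155 CPM and *Sox18* at 271 CPM, at 139.6-fold, 139-fold and 108-fold the next class. Macrophage-like cells were led by the myeloid factor *Spi1* at 396 CPM, with 4 counts in the other somatic classes and 0.404 CPM in germ cells. *Irf8* was at 203 CPM there, only 1.68-fold (0.815–4.03) the next class, Leydig-like.

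Likeness of pattern was measured as Pearson's r of log2(CPM + 10) over 20 points, the classes and the germ cells of the 3 libraries, among 13632 genes. The points of 1 library share its depth and its free RNA, so r describes these data only. The genes nearest to *Tcf21* were *Lama2*, *Col1a2* and *Col3a1*, matrix genes of fibroblasts, at r of 0.968, 0.964 and 0.964. Those nearest to *Nr2f2* were *Rims4*, *Tcaf1* and *Pkia* (0.957–0.948), to *Nr2f1* *Gpc6*, *Gucy1a2* and *Hrc* (0.959–0.958), and to *Mef2c* *Ikbkb*, *Ets2* and *Rap1a* (0.918–0.865). Those nearest to *Sox9* were *Fndc5*, *Trpm3* and *Col27a1* (0.941–0.890), to *Wt1* *Sulf1*, *Adcy2* and *Pdia5* (0.929–0.902), to *Gata6* *Rhox5*, *Capn6* and *Rab3b* (0.932–0.918), to *Gata4* *Smim1*, *Ccbe1* and *Obsl1* (0.955–0.934) and to *Nr5a1* *Cdc42ep5*, *Rab13* and *Cmbl* (0.949–0.941). *Rhox5* is also a Sertoli marker of the class lists, and *Col3a1* a stromal one.

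Within the 9, the nearest pairs were *Gata4* with *Nr5a1* at 0.866, *Tcf21* with *Nr2f2* at 0.821 and *Sox9* with *Gata6* at 0.810. *Wt1* was nearest to *Gata6* at 0.724, and *Mef2c* and *Nr2f1* were nearest to each other at 0.563. The paralogs had less alike patterns, with 0.466 for *Nr2f1* and *Nr2f2* and 0.319 for *Gata4* and *Gata6*. The genes lie on different chromosomes apart from *Nr2f1* (chr13:78188973-78199757) and *Mef2c* (chr13:83504034-83667080), and *Nr5a1* (chr2:38692656-38714542) and *Wt1* (chr2:105126529-105173616), in GRCm38.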

How the data were processed

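The 3 tables of 10x 3′ scRNA-seq of mouse testis cells were analysed. They hold raw deposited UMI counts, a whole number for each gene in each cell, which the authors made with Cell Ranger 2.1.1 on GRCm38, and which the submitters' notes follow with Seurat 3.1. Of the table of Tomato-negative cells, only the 7626 cells whose barcodes end in 1 were used. Its other 6413 columns repeat the control library or carry 149 cKO barcodes. The members and lists were chosen with earlier results of these data known.

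Cells with over 200 and under 7500 detected genes and under 10% mitochondrial counts were kept. The study's methods state an upper limit of 3500, which was an alternative. Cells were clustered in Seurat 5.3.0 on R 4.3.3 with 2000 variable genes, 15 components and resolution 0.3 for Tomato-negative cells, while control and cKO cells were joined by anchor integration, with 20 components at resolution 0.5. A second round on the somatic cells used 10 components and resolution 0.08. A cluster took the class of its highest marker score, a somatic one needing 3 markers seen in 10.0% of its cells. First-round clusters with *Ddx4* in at least 50% of cells, or a mean *Tnp1* of at least 25 per 10000 UMIs, were named germ whatever their score. A germ cluster of 59 control and cKO cells scored highest as stromal (0.742, against 0.634 for spermatogonia). Second-round clusters of 92 control and cKO and 114 Tomato-negative cells scored highest for germ markers and were counted as spermatocytes. Doublets called by Scrublet in scanpy 1.11.5 (3.46%, 3.00% and 4.67%) were left in.

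Counts were summed per class of at least 30 cells, and intervals came from scipy 1.17.1. A count of 0 was bounded at 3 counts. Only the ratio intervals were tested on simulated data, with independent Poisson counts as those intervals assume. Clustering and class naming were not tested in this way. Named were all 9 members, the 3 genes most like each among those with at least 100 somatic counts, and up to 3 listed factors per class by ratio to the next class. Of the latter, 3 are not reported here. The list of other factors had 65 genes. Depth was 195380762, 90453018 and 68602272 UMIs. The matching-cell values, the rule that separates myoid from vascular cells by their own markers, the pairs of genes read together, the split of spermatogonia and the treatment of pairs with 0 counts were chosen after values had been seen. Plots were drawn in matplotlib 3.10.9.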

Additional observations from a re-analysis of the deposited data

Results flagged for a closer look

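Cells outside the limits on quality entered no class above, and of the values with at least 20 counts 12 had a lower 95% limit above the control cells removed in the same way, read at their upper 95% limit or, with 0 counts, at the level of 3 counts. In the 1392 Tomato-negative cells at or over the mitochondrial limit, *Wt1* was at 88.4 CPM, *Sox9* at 56.0 CPM, *Nr5a1* at 34.5 CPM and *Mef2c* at 25.7 CPM, where the 141 control cells over that limit had 0 counts of each and 3 counts would be 21.3 CPM. *Mef2c* lay under the Poisson upper limit of 26.2 CPM that 0 control counts allow. Of the Tomato-negative cells, 1192 had counts of at least 3 Sertoli markers. The Sertoli marker list summed to 38737 CPM over the 1392 cells, beside 39094.6 CPM in the Sertoli-like class. *Wt1* and *Sox9* were thus at 88.4 and 56.0 CPM in the removed cells and at 372 and 438 CPM in the class, at a similar marker level. Of the 141 control cells, 2 had counts of at least 3 Sertoli markers, and the list summed to 603 CPM. The removed cells of the 2 libraries differed in this content and in age, alleles and sorting, so their values are not a contrast.

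In the 215 cKO cells over the mitochondrial limit *Sox9* was at 174.6 CPM (103 counts), *Wt1* at 149 CPM, *Mef2c* at 94.9 CPM and *Gata4* at 37.3 CPM, against the same control limit of 21.3 CPM. The lower 95% limit of *Gata4*, 23.4 CPM, lay under the Poisson upper limit of 26.2 CPM that 0 control counts allow. Here 24 cells had at least 3 Sertoli markers, and the list summed to 10693 CPM.

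In the 1149 Tomato-negative cells over the upper limit on genes *Gata6* was at 7.74 CPM (794 counts), *Wt1* at 2.81 CPM, *Sox9* at 2.63 CPM and *Gata4* at 0.546 CPM, where the control limits were 5.67 CPM, 0.272 CPM, 0.505 CPM and 0.272 CPM. *Gata6* stood at 4.26 CPM in the 148 control cells of this kind. The Sertoli marker list summed to 319 CPM in these Tomato-negative cells and to 22.6 CPM in these control cells. No cause of these levels was tested.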

How the results depend on the processing

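No paired analysis was possible because each group is 1 library, and for the same reason no replicate could be left out. The count of factors at least 2-fold above every other class of the cKO library went from 5 to 3 with classes read per cell from marker counts, to 3 with the mean over cells, and to 3 with only matching cells kept, the last chosen after seeing the data. The other comparisons of these kinds stayed within 1.5 times their reported value under the alternatives tried. The highest class of a factor did change. It changed most in the mixed vascular class. VSM-like cells stayed highest in only 6 of 11 alternatives for *Wt1* and *Sox9* in control and for *Wt1*, *Sox9* and *Gata6* in cKO. For *Wt1* in the Tomato-negative library it was endothelial-like with the limit of 3500 genes and as a mean over cells. The mean over cells also made Leydig-like cells highest for *Nr5a1* there, VSM-like cells for *Nr2f2* and macrophage-like cells for *Mef2c* in the cKO library, and 2 alternatives made stromal-like cells highest for *Gata4* in control. Pairs of a factor and a class past 2-fold between cKO and control numbered 4, with a range of 3 to 5 over the alternatives when pairs with 0 counts in a library are bounded at 3 counts. With such pairs left out, a treatment settled after the counts were seen, they numbered 4 of 25 as reported, 2 without called doublets, 2 with classes per cell and 1 in matching cells, which hold fewer cells. Of single values, 491 stayed inside their reported interval and 72 did not. *Sox9* in Sertoli-like cells ranged from 129 to 560.4 CPM and *Wt1* from 121 to 467 CPM, both lowest with the limit of 3500 genes, which removes the deeper cells. *Tcf21* in stromal-like cells ranged from 491 to 516 CPM, 370 to 436 CPM and 666 to 702 CPM in the 3 libraries, and its cKO over control ratio from 1.61 to 1.84 there, from 1.92 to 2.1 in myoid-like cells and from 2.90 to 24.7 in macrophage-like cells. In control and cKO vascular smooth muscle-like cells *Wt1* ranged down to 0 CPM. Depth limits *Nr2f1*, the Tomato-negative Leydig-like class, where 3 counts are 45.3 CPM, and *Gata6* in control cells.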

Other observations

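Of the listed factors, *Nr0b1* and *Dmrt1* are Sertoli-associated genes that were read beside *Sox9* and *Wt1*. *Nr0b1*, an orphan receptor also known as DAX1, was at 242 CPM in Tomato-negative Sertoli-like cells, 8.03 times (2.22 to 66.4) the next class, and *Dmrt1*, a factor of Sertoli and germ cells that is also on the spermatogonial marker list, was at 59.8 CPM beside 88.1 CPM in germ cells. These 2 genes were picked after their values had been seen.

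The 149 cells of the merged table with cKO barcodes carried values that were not identical to those of the cKO table for the same barcodes, with 5448 differing values over 30704 shared genes, while the 6264 control cells of the 2 tables had 0 differing values over 29872 genes. They were not used.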
